A study of Homo sapiens with 9 samples.

Results

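The kinesin family, the microtubule motor proteins encoded by the *KIF* genes, was described in the transcriptome of VCaP cells after transfection of siRNAs against the lncRNA *IGF1R-AS1*. Members were all gene symbols that began with KIF followed by a number and at most 2 letters, with *KIFC1*, *KIFC2* and *KIFC3* added. The rule found 43 of 19918 gene symbols. Of these, 42 belong to the kinesin motor family and 1, *KIF1BP*, encodes a protein that binds kinesins and is no member of that family, so it was set apart. The family members, called motors below although *KIF26A* and its relative *KIF26B* lack motor activity, were sorted by their known main role into 14 mitotic kinesins, 15 transport kinesins and 13 others, which act in cilia, centrioles, microtubule dynamics or signalling or are little studied. VCaP is an established prostate cancer cell line that carries the *TMPRSS2-ERG* fusion. Every culture was given 100 pmol of siRNA by reverse transfection and collected 72 h later. The control group received a control siRNA, labelled as wild type, and the si025 and si033 groups each received 1 of a pair of siRNAs against exon 1 of *IGF1R-AS1*, an antisense transcript of the *IGF1R* locus. Each group held 3 libraries of total RNA, and no other agent was named for any group. The level of *IGF1R-AS1* itself was not analysed here, so how far each siRNA lowered it in these libraries is not given. The study reports its knockdown in VCaP cells by qPCR.

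Kinesins use ATP to move along microtubules or to take microtubule ends apart, and most walk towards the growing plus end. The mitotic kinesins build the bipolar spindle, position chromosomes and organise the midzone where the daughter cells separate, and in dividing cells many of them accumulate in the G2 and M phases of the cell cycle. The transport kinesins carry vesicles, organelles and ciliary cargo through light chains, adaptors and small GTPases, and are used by dividing and resting cells alike.

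Library totals ranged from 11649811 to 28492259 counts, with 14735 to 15474 genes per library holding at least 1 count. Of all genes, 12810 were tested, and the biological coefficient of variation was 4.13%. All 8 marker genes of VCaP or prostate epithelium examined (*KLK3*, *TMPRSS2*, *FOLH1*, *EPCAM*, *KRT8*, *KRT18*, *ERG* and *HOXB13*) had counts in every library, and their summed level was 2693 to 2786 CPM (counts scaled to a common library size) in control, 3640 to 3667 with si025 and 2890 to 2924 with si033. Of 8 markers of leukocytes, endothelium and fibroblasts, between 2 and 4 were at 0 in any 1 library, *CD3E* and *CDH5* among them. Their sum was 16.8 to 19.0 CPM in control, 36.8 to 44.2 with si025 and 8.98 to 11.5 with si033, and *LUM* alone accounted for most of it (15.6, 37.1 and 8.39 CPM on average). The part of this difference in the kinesin results was not tested. A gene is referred to as called when its adjusted *p* value in edgeR's quasi-likelihood test, with Benjamini-Hochberg adjustment over all 12810 genes, was below 0.05. Calls were common in these data. In the comparison of si025 with control 61.7% of all tested genes were called, and in the comparison of si033 with control 54.8%, so the counts of kinesins below have to be read against these shares. Both comparisons use the same 3 control libraries.

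To show the start of genes that this report turns on, a stretch of 9 kinesins is printed 5′ to 3′ on the strand of the gene (RefSeq, GRCh38.p14). It runs from 80 bases before to 20 bases after a RefSeq start, which can lie inside the gene as counted. Capitals mark the words of 2 elements known from genes of the G2 and M phases, read on either strand: the cell cycle genes homology region (CHR, here TTTGAA or TTCGAA) and the CCAAT box (CCAAT). *KIF11* (chr10:92593050-92593149, plus strand), *KIF4A* (chrX:70290024-70290123, plus), *KIF14* (chr1:200620732-200620831, minus), *KIF22* (chr16:29790671-29790770, plus) and *KIF23* (chr15:69414269-69414368, plus) are mitotic kinesins with both words. *KIF15* (chr3:44761714-44761813, plus) and *KIF20A* (chr5:138179032-138179131, plus) are mitotic kinesins with only 1 of the words. *KIF24* (chr9:34329249-34329348, minus) is the kinesin of the other class with both words, and *KIF5B* (chr10:32056406-32056505, minus) is shown as a transport kinesin for contrast.
KIF11: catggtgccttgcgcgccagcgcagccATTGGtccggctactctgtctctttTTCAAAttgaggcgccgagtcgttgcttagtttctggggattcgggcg
KIF4A: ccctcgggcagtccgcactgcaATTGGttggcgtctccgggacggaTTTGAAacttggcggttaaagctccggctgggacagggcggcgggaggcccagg
KIF14: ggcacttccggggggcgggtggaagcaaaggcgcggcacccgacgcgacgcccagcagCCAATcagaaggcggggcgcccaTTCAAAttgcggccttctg
KIF22: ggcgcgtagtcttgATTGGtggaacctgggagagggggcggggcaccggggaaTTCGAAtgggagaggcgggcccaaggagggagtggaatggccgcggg
KIF23: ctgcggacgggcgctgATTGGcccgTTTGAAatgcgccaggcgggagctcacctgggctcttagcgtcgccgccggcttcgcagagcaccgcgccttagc
KIF15: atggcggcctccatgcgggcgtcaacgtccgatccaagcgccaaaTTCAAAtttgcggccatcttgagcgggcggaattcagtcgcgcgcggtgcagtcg
KIF20A: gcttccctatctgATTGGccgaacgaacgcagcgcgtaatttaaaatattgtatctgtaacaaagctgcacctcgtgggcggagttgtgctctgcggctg
KIF24: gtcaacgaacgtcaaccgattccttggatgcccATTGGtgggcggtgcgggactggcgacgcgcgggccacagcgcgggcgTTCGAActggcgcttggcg
KIF5B: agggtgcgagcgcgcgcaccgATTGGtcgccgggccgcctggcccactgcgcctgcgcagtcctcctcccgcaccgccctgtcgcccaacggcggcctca

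The mitotic kinesins were lower with either siRNA against *IGF1R-AS1* than with the control siRNA. Of the 14, 12 had enough counts to be tested. All 12 fell with si025 (28.8% of all tested genes fell in this comparison). With si033 all 12 fell as well (27.8% of all genes), although there the call of *KIF4B* depended on single libraries as given below. The median log2 fold change of the 12 was -0.76 with si025, between -1.15 and -0.24, and -0.51 with si033, between -0.81 and -0.30, whereas the medians over all tested genes were 0.02 and 0.00. In each of the 12 genes all 3 si025 libraries lay below all 3 control libraries, an order found in 30.7% of all genes, and likewise all 3 si033 libraries, found in 30.2% of all genes. Across all tested genes 14.6% were called lower with both siRNAs. In RNA from a whole culture, fewer cells in mitosis and less of these transcripts per cell cannot be told apart.

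**Figure D1:**
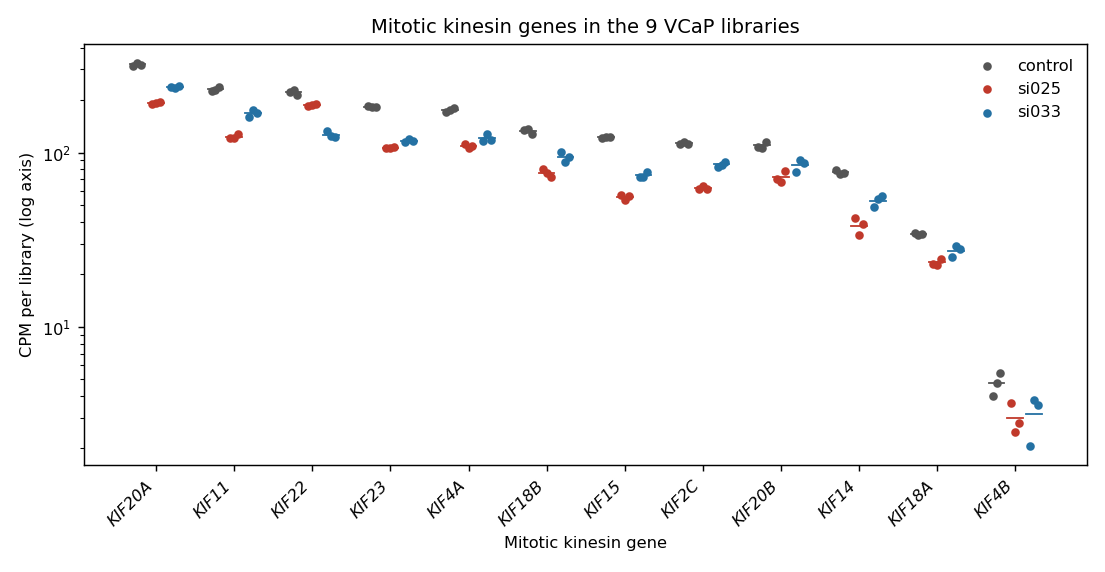
Level of the 12 tested mitotic kinesin genes in each of the 9 VCaP libraries, in CPM on a log axis, ordered by control level. Points are libraries, 3 per group, and lines are group means; for every gene the si025 and si033 points lie below the control points, and for *KIF22* the si033 points lie lowest.

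*KIF11* (Eg5; chr10:92593068-92655395, plus strand, hg38) pushes the spindle poles apart and is needed for a bipolar spindle. It measured 227, 229 and 239 CPM in the control libraries, 121, 121 and 128 with si025 and 161, 174 and 168 with si033. The 3 groups did not overlap, with si025 lowest. *KIF11* was 1.88-fold lower with si025 (log2 -0.91, SE 0.05, adjusted *p* = 8.83e-14) and 1.38-fold lower with si033 (-0.46, SE 0.05, adjusted *p* = 8.55e-09). *KIF15* (chr3:44761714-44853274, plus strand), which works beside *KIF11* in keeping the spindle bipolar, showed the largest fall of any motor after si025. Its level was 121, 123 and 123 CPM in control, 56.8, 53.2 and 56.0 with si025 and 72.7, 72.2 and 77.2 with si033. Again the groups were separate and si025 was lowest, 2.21-fold below control (-1.15, SE 0.05, adjusted *p* = 5.21e-15), whereas si033 was 1.65-fold below control (-0.72, SE 0.05, adjusted *p* = 1.5e-11).

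The motors of the midzone and of cytokinesis fell as well. *KIF23* (MKLP1; chr15:69414246-69448427, plus strand) is the motor subunit of centralspindlin, which bundles midzone microtubules. It was measured at 184, 182 and 183 CPM in control, 106, 106 and 108 with si025 and 115, 120.0 and 116 with si033, so that the siRNA groups were close to each other and both well below control. The fall was 1.72-fold with si025 (log2 -0.78, SE 0.04, adjusted *p* = 3.77e-13) and 1.57-fold with si033 (-0.65, SE 0.04, adjusted *p* = 1.33e-11). *KIF14* (chr1:200551497-200620791, minus strand), which acts in cytokinesis, had 79.9, 74.9 and 76.4 CPM in control, 41.9, 33.5 and 38.8 with si025 and 48.8, 54.2 and 56.0 with si033. Its groups did not overlap, and it was 2.04-fold lower with si025 (-1.02, SE 0.07, adjusted *p* = 8.41e-12) and 1.44-fold lower with si033 (-0.53, SE 0.07, adjusted *p* = 4.19e-07). *KIF20A*, which brings the chromosomal passenger complex to the midzone and was the most abundant mitotic kinesin at 320.0 ± 5.54 CPM (SD, *n* = 3) in control, fell to 192 ± 2.01 with si025 and 237 ± 1.98 with si033 (log2 fold changes -0.74 and -0.43). *KIF20B*, another cytokinesis motor, changed by -0.60 and -0.37 (the latter -0.21 with offsets for exon length and GC content), and *KIF4A*, which limits the length of midzone microtubules and binds chromosomes, by -0.69 and -0.54. *KIF4B*, an intronless gene nearly identical to *KIF4A*, held only 25 to 140 counts per library. Its log2 fold changes of -0.74 and -0.59 are uncertain, because read pairs that match both copies cannot be assigned, and its si033 call was lost without si033 replicate 1 (-0.40, adjusted *p* = 0.071) or control replicate 3 (-0.45, adjusted *p* = 0.111).

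Motors that act on chromosomes and on microtubule ends moved the same way, with 1 of them in a different order. *KIF2C* (MCAK; chr1:44739704-44767767, plus strand) takes microtubule ends apart at centromeres and corrects faulty attachments. It had 113, 115 and 113 CPM in control, 62.1, 64.0 and 62.0 with si025 and 82.7, 84.9 and 88.6 with si033. No library of 1 group reached into another, and the log2 fold changes were -0.86 (SE 0.05, adjusted *p* = 4.6e-13) and -0.41 (SE 0.05, adjusted *p* = 1.31e-07). *KIF22* (Kid; chr16:29790062-29805385, plus strand), which pushes chromosome arms away from the poles, had 223, 228 and 214 CPM in control, 185, 188 and 191 with si025 and 132, 125 and 122 with si033. Here si033 gave the lowest libraries and si025 lay in between. It changed by -0.24 on the log2 scale with si025 (SE 0.04, adjusted *p* = 7.52e-05) and by -0.81 with si033 (SE 0.05, adjusted *p* = 7.05e-13). *KIF18A*, which dampens chromosome movements at the metaphase plate, changed by -0.53 with si025 and -0.30 with si033, and *KIF18B*, which controls astral microtubules, by -0.80 and -0.49.

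Compared directly, si025 gave lower levels than si033 for most mitotic kinesins. Of the 12, 10 were lower with si025 than with si033 (29.7% of all tested genes were, and 60.9% were called in either direction), 1 was higher (31.2% of all genes) and 1, *KIF4B*, was not called (log2 difference -0.15, 95% interval -0.57 to 0.27, adjusted *p* = 0.532). The median log2 difference of the 12 was -0.27, against -0.00 over all tested genes, and in 9 of them the si025 libraries lay entirely below the si033 libraries (30.4% of all genes). The largest differences in this direction were those of *KIF14* (-0.50), *KIF2C* (-0.45), *KIF11* (-0.44) and *KIF15* (-0.43), with adjusted *p* values between 1.9e-08 and 1.75e-06. *KIF4A* and *KIF23* differed least among the called genes (-0.15 and -0.13, adjusted *p* = 0.00851 and 0.0111). *KIF22* was the gene in the opposite direction, 1.49-fold higher with si025 than with si033 (0.58, SE 0.05, adjusted *p* = 1.8e-10).

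The remaining 2 mitotic kinesins could not be tested. *KIF2B*, another centromere depolymerase, had no count in any library, which at the deepest library allows no more than 3 of 28492259 counts. *KIFC1* (HSET; chr6:33391524-33410226, plus strand), the minus end-directed motor that gathers spindle poles and is known for clustering extra centrosomes in cancer cells, had 7, 0 and 0 counts in control, 0, 3 and 0 with si025 and 0, 0 and 0 with si033. This value is not a measure of its expression. Of 30 listed genes within 500000 bases of *KIFC1*, 11 had no count in any library and 23 had fewer than 100 counts in all 9 libraries together. *RPS18*, a ribosomal protein gene used by every cell, is among them with 9 counts in all. *RING1* had 0 and *DAXX* had 17. *TUBB*, a beta-tubulin gene of the same chromosome, was also at 0 in all libraries. Why this stretch is nearly empty was not tested.

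Genes that work with the mitotic kinesins were examined as a list of 20, of which 19 were tested. The symbol *KIFBP* of the list stands in the files under its older name *KIF1BP*. With si025, 17 of the 19 were lower (28.8% of all tested genes) and none higher (median log2 fold change -0.69), and with si033, 16 were lower (27.8% of all genes) and 1 higher (median -0.43). *PRC1*, which crosslinks midzone microtubules and recruits *KIF4A*, measured 393.6 ± 9.96, 244 ± 0.924 and 282 ± 6.35 CPM (SD, *n* = 3) in control, si025 and si033, and *RACGAP1*, the partner of *KIF23* in centralspindlin, 235 ± 10.5, 141 ± 1.18 and 187 ± 4.68. *TPX2*, a spindle assembly factor that binds *KIF11* and *KIF15*, had 372 ± 16.2, 217 ± 4.66 and 268 ± 5.97 CPM. All 3 genes were below control with either siRNA. *CENPE*, a kinesin of the kinetochore whose symbol the rule does not match, followed with log2 fold changes of -0.47 and -0.32. *MKI67*, a marker of proliferating cells that is also on the list, had 529 ± 15.4, 272 ± 28.6 and 412 ± 4.13 CPM. The exceptions were *NUMA1*, which was called in no comparison (0.03 and 0.01), *ECT2*, which was called with si033 only (-0.07 and -0.48), *PLK1*, likewise with si025 only (-0.29 and -0.05), and *AURKA*, which fell with si025 (-0.14) and rose with si033 (0.16).

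The transport kinesins had no common direction across the siRNAs, although with si025 most of the called genes were higher. Of 15, 14 were tested, among them *KIFC3*, which passed the filter on low counts only through the si033 libraries, where it was highest. With si025, 9 were higher (32.9% of all tested genes were), 1 was lower (28.8% of all genes) and 4 were not called. The median log2 fold change was 0.31, against 0.02 over all tested genes. With si033, 7 were higher (26.9% of all genes), 4 lower (27.8% of all genes) and 3 not called. The median was 0.13, against 0.00 over all tested genes. *KIFC3* had to be among the higher genes by its selection, and without it 6 of 13 were higher with si033, at a median of 0.12. All si025 libraries lay above all control libraries in 10 of the 14 (35% of all genes) and below them in 2 (30.7% of all genes). For si033 these counts were 7 (29.3% of all genes), or 6 without *KIFC3*, and 5 (30.2% of all genes). *KIF1B*, *KIF1C*, *KIF3C* and *KIF5A* were higher with both siRNAs (15.1% of all genes were), *KIF5C* and *KIF13B* were higher with si025 and lower with si033 (5.39% of all genes), and *KIF3B* was lower with si025 and higher with si033 (3.01% of all genes). No transport kinesin was called lower with both. *KIF5B* was the exception in fits without the filter on low counts, of 2 groups only or without si025 replicate 3. Compared directly, 7 were higher with si025 than with si033 (31.2% of all genes were). All 7 had no overlap of libraries, an order found in 32.2% of all genes. Another 3 were lower (29.7% of all genes), or 2 without *KIFC3*, and 4 were not called.

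**Figure D2:**
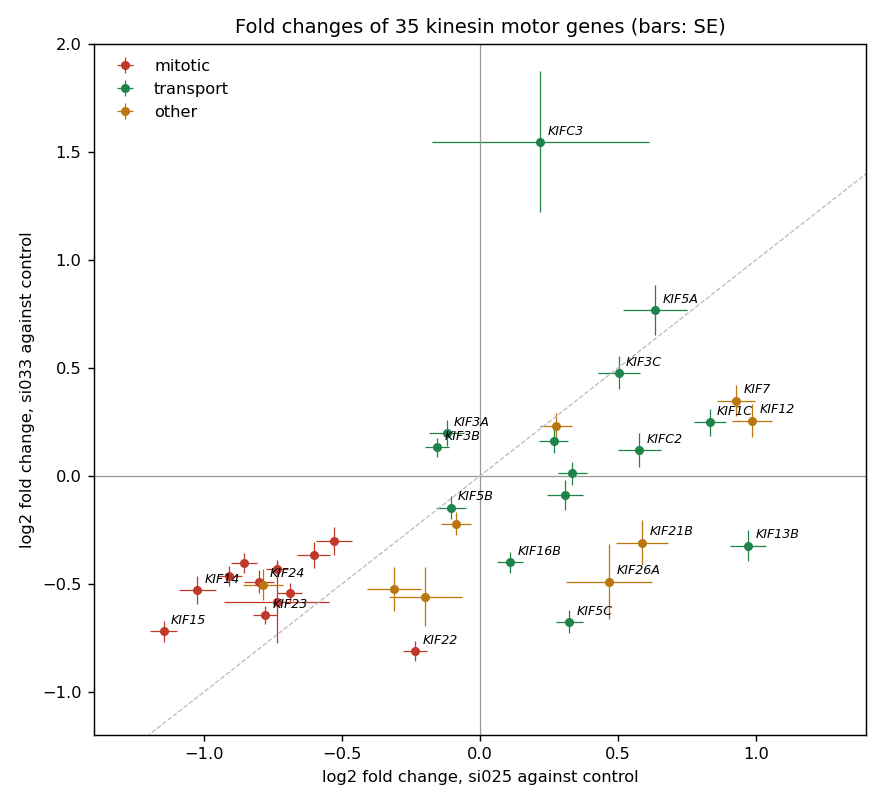
Log2 fold change against control of 35 tested motors, si025 on the horizontal and si033 on the vertical axis, with SE bars and a dashed line of equal change. Red points are mitotic, green transport and ochre other kinesins; both axes share the 3 control libraries, and all mitotic kinesins lie in the lower left quadrant, while the other classes spread over all 4 quadrants.

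The kinesin-1 heavy chains *KIF5A*, *KIF5B* and *KIF5C*, which move vesicles and mitochondria with the light chains, went in different directions. *KIF5B* (chr10:32009010-32056443, minus strand), the ubiquitous form, was the most abundant motor per length of exon in control, at 97.0 RPKM (CPM per kilobase of exon). Its level was 595, 579.9 and 598 CPM in control, 570.2, 490.2 and 588 with si025 and 501, 558 and 541 with si033. The si025 libraries overlapped the control libraries (log2 fold change -0.11, SE 0.05, adjusted *p* = 0.091) and the si033 libraries lay below them (-0.15, SE 0.05, adjusted *p* = 0.0239). The call with si033 was lost with upper quartile scaling (-0.12, adjusted *p* = 0.0576) and without si033 replicate 1 (-0.10, adjusted *p* = 0.149), control replicate 1 (-0.13, adjusted *p* = 0.0857) or control replicate 3 (-0.13, adjusted *p* = 0.0864), and its value was -0.095 with offsets for exon length and GC content. A call with si025 was gained without the filter on low counts (-0.11, adjusted *p* = 0.0332), in a fit of 2 groups only (-0.12, adjusted *p* = 0.0383) and without si025 replicate 3 (-0.16, adjusted *p* = 0.025). *KIF5C* (chr2:148875223-149026759, plus strand), best known from neurons, had 84.1, 85.9 and 85.9 CPM in control, 107, 104 and 109 with si025 and 49.1, 55.6 and 54.8 with si033. Its si025 libraries lay above and its si033 libraries below the control libraries. The log2 fold changes were 0.32 (SE 0.05, adjusted *p* = 6.43e-06) and -0.68 (SE 0.05, adjusted *p* = 2.37e-10), a 2.0-fold difference between the siRNAs (adjusted *p* = 8.99e-14). *KIF5A* (chr12:57550064-57584771, plus strand), the form typical of neurons, was low, at 7.33, 7.61 and 7.88 CPM in control, 14.1, 10.5 and 11.6 with si025 and 11.4, 12.6 and 14.4 with si033. Both siRNA groups lay above control and overlapped each other. It rose by 0.63 (SE 0.12, adjusted *p* = 6.44e-05) and 0.77 (SE 0.12, adjusted *p* = 7.03e-06) on the log2 scale, and the siRNAs were not called different (-0.13, 95% interval -0.36 to 0.09). Of the summed RPKM of the 3 genes, *KIF5C* took 9.69 ± 0.206% in control, 12.5 ± 0.819% with si025 and 6.79 ± 0.0846% with si033 (SD, *n* = 3).

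Among kinesin-3 motors, which carry vesicles, endosomes and mitochondria, *KIF13B* showed the largest difference between the siRNAs. *KIF13B*, a vesicle motor that binds the scaffold protein DLG1, had 37.5, 36.2 and 35.9 CPM in control, 74.1, 65.5 and 74.9 with si025 and 30.0, 26.0 and 30.6 with si033. The si025 libraries lay above and the si033 libraries below the control libraries. It was 1.96-fold higher with si025 (log2 0.97, SE 0.06, adjusted *p* = 8.41e-12) and 1.25-fold lower with si033 (-0.32, SE 0.07, adjusted *p* = 0.000502), and differed 2.45-fold between the siRNAs (1.30, SE 0.07, adjusted *p* = 5.71e-14). *KIF13A*, its relative on recycling endosomes, rose with si025 (0.31) and was not called with si033 (-0.09), so that the share of *KIF13B* in the summed RPKM of the pair was 56.1 ± 0.642% in control, 66.8 ± 0.471% with si025 and 51.8 ± 2.04% with si033. *KIF1C* (chr17:4997948-5028399, plus strand), a vesicle motor, had 33.2, 35.7 and 31.4 CPM in control, 58.7, 59.0 and 59.5 with si025 and 41.5, 38.0 and 39.0 with si033. Both siRNA groups lay above control without overlap, si025 by 0.83 (SE 0.06, adjusted *p* = 2.58e-11) and si033 by 0.25 (SE 0.06, adjusted *p* = 0.00163) on the log2 scale. *KIF1A*, which carries synaptic vesicle precursors in neurons, and at 24.3 RPKM in control was the second most abundant transport kinesin, rose with si025 (0.33, or 0.13 with offsets for exon length and GC content) and was not called with si033 (0.01, 95% interval -0.10 to 0.12). *KIF1B*, a motor of mitochondria and synaptic vesicle precursors, was higher with both (0.27 and 0.16). *KIF16B*, the motor of early endosomes, fell with si033 (-0.40) and was not called with si025 (0.11, adjusted *p* = 0.0513).

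Kinesin-2 motors drive transport in cilia and of vesicles as pairs of a *KIF3A* subunit with *KIF3B* or *KIF3C* bound to *KIFAP3*. *KIF3A* (chr5:132688808-132737633, minus strand) had 42.3, 42 and 43.5 CPM in control, 41.5, 36.4 and 40.2 with si025 and 44.9, 50.8 and 50.6 with si033. The si025 libraries lay just below and the si033 libraries just above control. Its change was not called with si025 (log2 -0.12, SE 0.06, adjusted *p* = 0.0972), although a call was gained in a fit of 2 groups only (-0.14, adjusted *p* = 0.0463). It was called with si033 (0.20, SE 0.06, adjusted *p* = 0.00947), a call that was lost without si033 replicate 3 (0.17, adjusted *p* = 0.0681). *KIF3B* fell slightly with si025 (-0.16) and rose slightly with si033 (0.13). Directly, *KIF3A* and *KIF3B* were lower with si025 than with si033 by 0.32 and 0.29 on the log2 scale (adjusted *p* = 0.000107 and 5.67e-06). *KIFAP3*, the shared non-motor subunit, moved with them in this comparison (-0.38, adjusted *p* = 0.000184). *KIF3C*, the alternative partner of *KIF3A*, rose by a like amount with both siRNAs (0.50 and 0.48), and the difference between them was 0.02 with a 95% interval of -0.13 to 0.17. The *KIF3C* share of the 3 genes by RPKM was 13.3 ± 0.677% in control, 19.3 ± 0.959% with si025 and 16.3 ± 1.2% with si033.

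*KIFC2* and *KIFC3* are motors of the minus end-directed kinesin-14 type that are placed with transport. *KIFC2* had 59.5, 51.9 and 49.4 CPM in control, 74.2, 84.4 and 78.3 with si025 and 62.8, 48.5 and 60.7 with si033. The si025 libraries lay above all others, whereas si033 and control overlapped. It rose 1.49-fold with si025 (log2 0.58, SE 0.08, adjusted *p* = 8.7e-07) and was not called with si033 (0.12, SE 0.08, adjusted *p* = 0.217), although a call was gained without si033 replicate 2 (0.21, adjusted *p* = 0.0153). *KIFC3* held only 3 to 36 counts per library. Its higher value with si033 (1.35 against 0.424 CPM in control) is given as a description, because these libraries were what brought it past the filter. *KIF17*, a motor of cilia and dendrites, had 0 to 5 counts and was not tested.

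**Figure D3:**
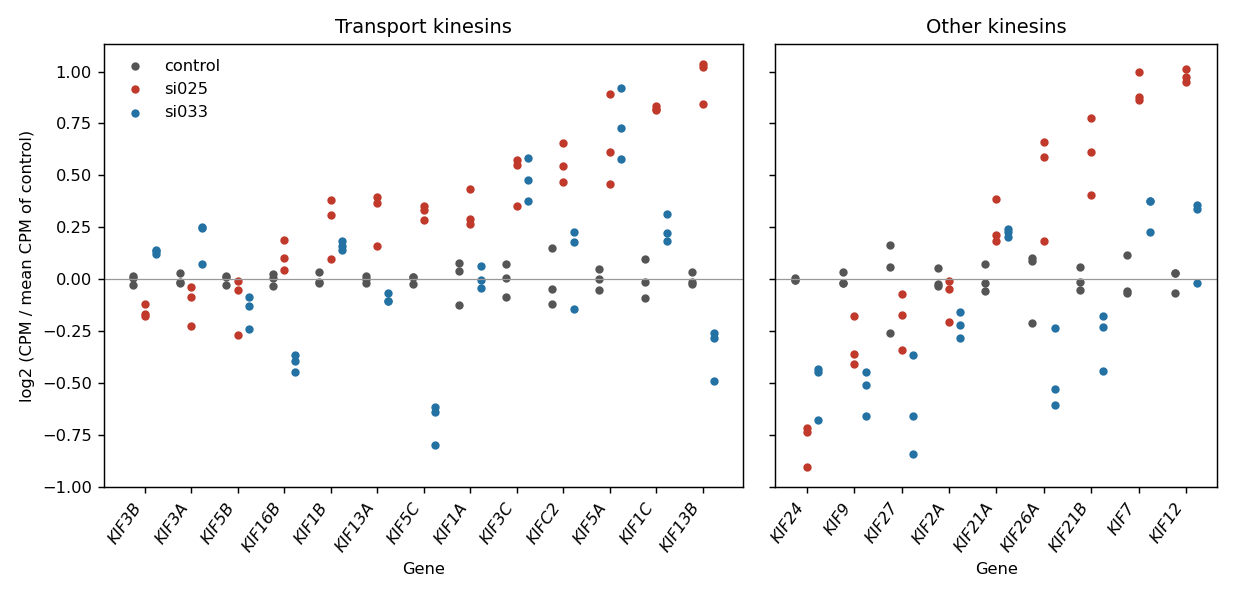
Log2 ratio of CPM in each library to the mean CPM of the control libraries, for 13 transport kinesins (left, *KIFC3* left out) and 9 other kinesins (right). Points are libraries, grey control, red si025 and blue si033. *KIF5C*, *KIF13A*, *KIF13B*, *KIF16B*, *KIF21B* and *KIF26A* have their si025 points above and their si033 points below the control points.

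The genes that link transport kinesins to cargo (light chains, adaptors, Arl8 and Miro GTPases, Rab exchange factors) were all tested, 20 of 20. With si025, 9 (45%) were higher and 2 (10%) lower, against 32.9% and 28.8% of all tested genes, at a median of 0.13. With si033, 8 (40%) were higher and 1 (5%) lower, against 26.9% and 27.8%, at a median of 0.11. In either direction 55% and 45% were called, against 61.7% and 54.8% of all tested genes. Called falls were thus a smaller share of the list than of all genes, and called rises a larger one. *TRAK1* and *TRAK2*, the mitochondrial adaptors of kinesin-1, were higher with both siRNAs (0.28 and 0.49 for *TRAK1*, 0.32 and 0.13 for *TRAK2*). *SYBU*, an adaptor known from neurons, rose with si025 (0.66, adjusted *p* = 2.71e-06), and *KLC1*, the main kinesin light chain, was called with neither (0.08 and -0.11). Of 20 genes of dynein and dynactin, the motor that walks the opposite way, 6 were higher and 7 lower with si025 (65% called), and 6 higher and 4 lower with si033 (50% called), near the shares over all genes, at medians of -0.05 and 0.01. Of 16 tubulin genes, the track on which all these motors walk, 15 were tested. With si025, 5 (33.3%) were higher and 5 (33.3%) lower, 66.7% called against 61.7% of all tested genes. With si033, 5 (33.3%) were higher and 6 (40%) lower, 73.3% called against 54.8% of all tested genes. *TUBA1B*, an alpha-tubulin at 1045 ± 129 CPM (SD, *n* = 3) in control, was 498 ± 13.7 with si025 and 839.7 ± 81.8 with si033.

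Of the 13 other kinesins 9 were tested. With si025, 5 were higher (32.9% of all tested genes) and 2 lower (28.8%), at a median log2 fold change of 0.28, and with si033, 3 were higher (26.9%) and 6 lower (27.8%), at a median of -0.31. *KIF24* and *KIF9* were lower with both siRNAs. *KIF24* (chr9:34252380-34332972, minus strand), a relative of *KIF2C* that acts at the mother centriole and holds back cilium formation in dividing cells, had 31.2, 31.1 and 31.3 CPM in control, 19.0, 16.7 and 18.7 with si025 and 23.2, 19.5 and 22.9 with si033. The groups were separate and ordered as in most mitotic kinesins, with si025 lowest (-0.79, SE 0.07, adjusted *p* = 2.49e-09) and si033 next (-0.50, SE 0.07, adjusted *p* = 2.63e-06). *KIF9*, a motor of motile cilia and flagella at 12.2 CPM in control, changed by -0.31 and -0.52. The si025 call of *KIF9* was lost without si025 replicate 3 (-0.26, adjusted *p* = 0.051). *KIF2A*, a microtubule depolymerase that also works at spindle poles, was called with si033 only (-0.09 with si025 and -0.22 with si033), the smallest called fall of the class.

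*KIF7* (chr15:89627970-89663086, minus strand), the kinesin that organises the cilium tip in Hedgehog signalling, had 22.4, 19.7 and 19.9 CPM in control, 37.9, 41.3 and 37.6 with si025 and 26.9, 24.2 and 26.8 with si033. All siRNA libraries lay above control, those of si025 highest. It rose by 0.93 with si025 (SE 0.07, adjusted *p* = 5.97e-11) and by 0.35 with si033 (SE 0.07, adjusted *p* = 0.000313). *KIF27*, its close relative, was not called with si025 (-0.20) and fell with si033 (-0.56). *KIF12* (chr9:114091623-114100099, minus strand), a less studied kinesin of epithelia, had 32.3, 32.3 and 30.2 CPM in control, 62.1, 63.7 and 61.1 with si025 and 40.5, 31.3 and 39.9 with si033. The si025 libraries stood apart, and 1 si033 library fell among the controls. It rose by 0.99 with si025 (SE 0.07, adjusted *p* = 4.17e-11) and by 0.26 with si033 (SE 0.08, adjusted *p* = 0.00645), the latter lost without si033 replicate 3 (0.19, adjusted *p* = 0.0843).

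*KIF21B* (chr1:200969386-201023700, minus strand), which pauses microtubule growth, had 12.1, 13.1 and 12.5 CPM in control, 21.6, 19.2 and 16.7 with si025 and 10.7, 11.1 and 9.25 with si033. Its si025 libraries were above and its si033 libraries below control. The log2 fold changes were 0.59 (SE 0.09, adjusted *p* = 1.18e-05; 0.38 with offsets for exon length and GC content) and -0.31 (SE 0.11, adjusted *p* = 0.016), and the latter was lost without si033 replicate 3 (-0.20, adjusted *p* = 0.173) or control replicate 2 (-0.27, adjusted *p* = 0.0629). *KIF21A*, its paralogue, was higher with both siRNAs (0.28 and 0.23), with a difference of 0.05 between them and a 95% interval of -0.07 to 0.17. *KIF26A* (chr14:104138723-104180898, plus strand), a kinesin-like protein without motor activity that damps growth factor signalling, was low, with 4.63, 3.77 and 4.67 CPM in control, 6.54, 6.90 and 4.95 with si025 and 3.71, 3.02 and 2.86 with si033. Its groups did not overlap and lay in the same order as those of *KIF21B*. It changed by 0.47 (SE 0.16, adjusted *p* = 0.0124) and -0.49 (SE 0.17, adjusted *p* = 0.0209). Single alternatives ended these calls. The si025 call was lost without si025 replicate 2 (0.35, adjusted *p* = 0.081) or control replicate 2 (0.38, adjusted *p* = 0.0659), and with offsets for exon length and GC content (0.33, adjusted *p* = 0.0534). The si033 call was lost without si033 replicate 3 (-0.39, adjusted *p* = 0.131), control replicate 1 (-0.45, adjusted *p* = 0.0589) or control replicate 3 (-0.41, adjusted *p* = 0.116). The direct difference between the siRNAs (0.96, adjusted *p* = 2.62e-05) kept its call in all alternatives. *KIF6* (1 to 5 counts per library), *KIF19* (0 to 1), *KIF25* (1 to 19) and *KIF26B* (0 to 3) were not tested. *KIF1BP*, which holds several kinesins off the microtubule, measured 78.1 ± 1.63 CPM in control, 71.1 ± 4.18 with si025 and 80.1 ± 1.11 with si033 (SD, *n* = 3).

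Summed per length of exon, the 2 classes were closer to each other with si025 and with si033 than in control. The mitotic kinesins together reached 409, 415 and 411 RPKM in the control libraries, 256, 254 and 259.6 with si025 and 279, 285 and 283 with si033. The transport kinesins reached 218, 214 and 214 RPKM in control, 245, 221 and 242 with si025 and 202, 207 and 209 with si033. The mitotic sums of the groups did not overlap, and the transport sums of si025 lay above and those of si033 below control. The ratio of mitotic to transport RPKM was 1.88 to 1.94 in control, 1.05 to 1.15 with si025 and 1.36 to 1.38 with si033, and the mitotic share of the RPKM of all motors was 60.5% to 61.3%, 45.7% to 47.6% and 52.4% to 53.0%. *KIF5B* alone made up 45.1% of the transport sum in control on average, 38.2% with si025 and 42.5% with si033. With *KIF5B* left out, the transport sum was 116 to 120.0 RPKM in control, 140.5 to 151 with si025 and 115 to 120.1 with si033, so that si033 overlapped control. These sums weight abundant genes most and carry no test. *KIFC1* enters the mitotic sum with only 0.061 RPKM in control, which is not a measure of its expression, so its true part is missing from the sums, ratios and shares.

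**Figure D4:**
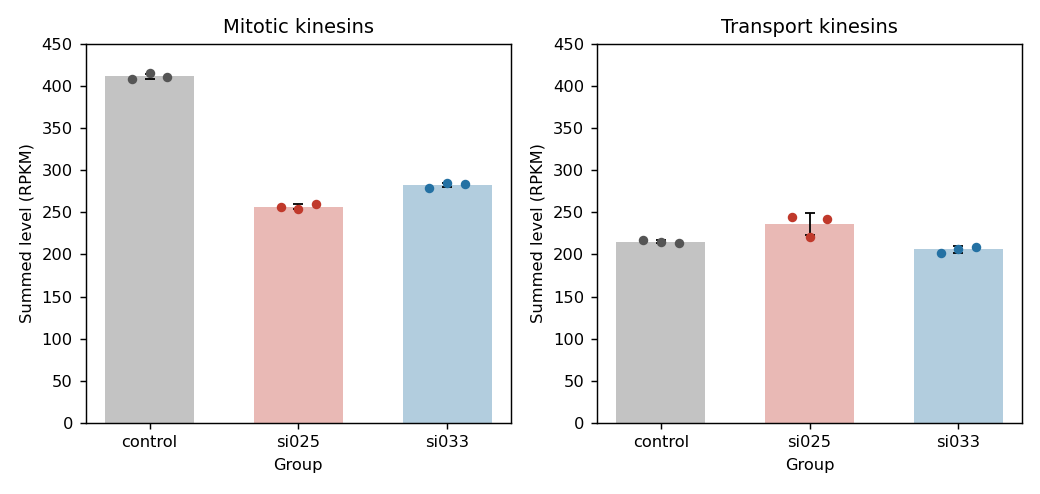
Summed level of the mitotic (left) and transport (right) kinesins in RPKM, per group of 3 libraries. Bars are means from 0, error bars SD and points libraries; the mitotic sum falls from 412 in control to 257 with si025 and 282 with si033, while the transport sum stays between 202 and 245.

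The promoter words were counted over 300 bases, from 250 before to 50 after the RefSeq start, on both strands. For each motor the first listed RefSeq start was used, which can lie inside the gene as counted. For *KIF5C* the stretch was chr2:148947625-148947924, in a gene that starts at 148875223. Those of *KIF7*, *KIF12* and *KIF24*, among others, also lay inside the gene. Words at other starts of a gene were not examined. Of the 42 motors 34 had an entry. *KIF5A*, *KIF13B*, *KIFC2*, *KIFC3*, *KIF19*, *KIF21B*, *KIF26B* and *KIF27* had none. A CHR word was present in 11 of 14 mitotic promoters (78.6%), 1 of 11 transport promoters (9.09%) and 1 of 9 others (11.1%), against 16.4% of all 35116 promoters of this length. A CCAAT word was present in 11 of 14 mitotic (78.6%), 3 of 11 transport (27.3%) and 3 of 9 other promoters (33.3%), against 34.6% of all promoters. Both words stood together in 10 of 14 mitotic promoters (71.4%) and in 6.38% of all promoters. Outside the mitotic class, *KIF24* and *KIF5B* held both, *KIF5B* with its CHR word 140 bases before the start, outside the stretch printed above. The distance from the first base of the nearest CCAAT word to that of the CHR word after it varied. It was 23 to 25 bases in *KIF4A*, *KIF11* and *KIF14*, and in *KIF4B*, which shares its origin with *KIF4A*. It was 9 bases in *KIF23*, 34 in *KIF18B*, 35 in *KIF18A* and 39 in *KIF22*. In *KIF24* it was 48, in *KIFC1* 50 and in *KIF20B* 122. No CHR word was found in *KIF2B*, *KIF2C* and *KIF20A*, and no CCAAT word in *KIF2B*, *KIF2C* and *KIF15*. Words of 2 further elements were searched. TTTNGCGC, read by E2F factors, was found in *KIF15* and *KIF6* (1.79% of all promoters), and the E box CACGTG, read by MYC among others, in no kinesin promoter (7.26% of all promoters). TTCGAA and CACGTG read the same on both strands and were counted once, and no match of 1 element overlapped that of another in the kinesins. Such matches are letters and not shown sites of binding.

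**Figure D5:**
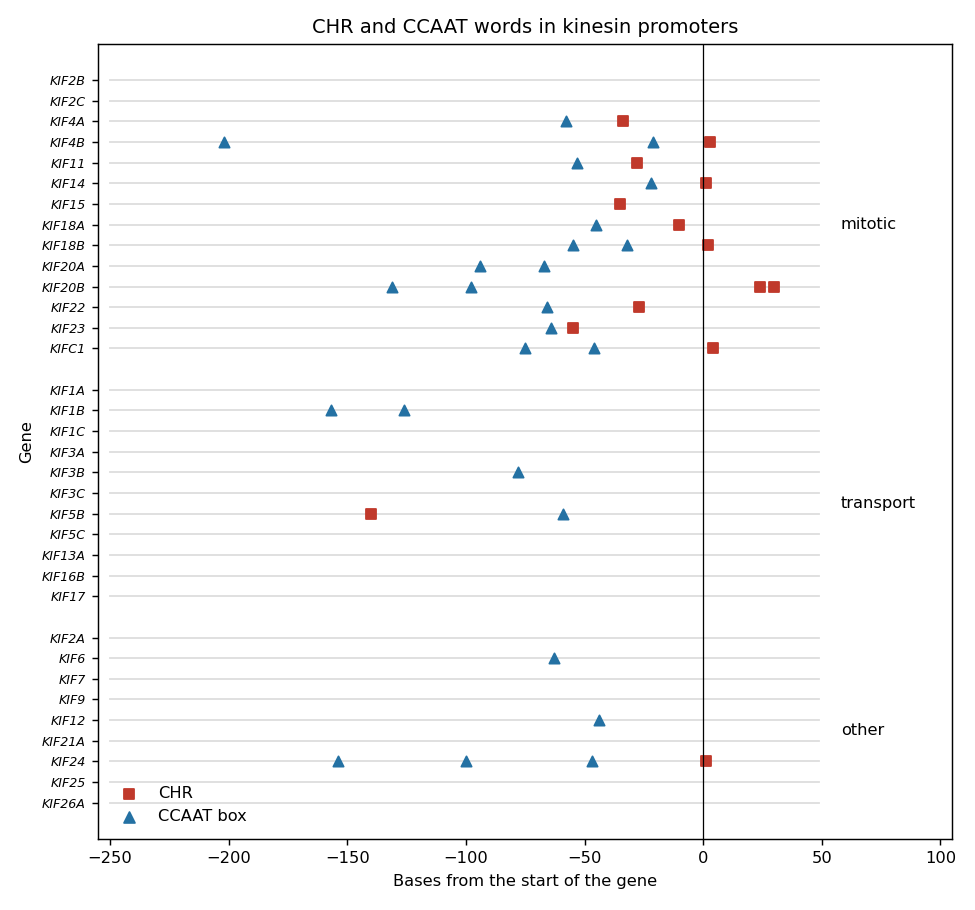
Position of CHR words (red squares) and CCAAT words (blue triangles) in 34 kinesin promoters, in bases from the RefSeq start (position 0, vertical line), with genes grouped by class. In most mitotic kinesins both words lie within about 100 bases of the start, while most transport and other kinesins have no CHR word.

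Set beside the fold changes, 11 tested motors had both words in the promoter. Of these 10 were lower with both siRNAs (14.6% of all tested genes), 9 mitotic kinesins and *KIF24*, and the remaining 1, *KIF5B*, was called with si033 only. Of 18 tested motors with an entry that lacked 1 or both words, 4 were lower with both siRNAs (*KIF2C*, *KIF15*, *KIF20A* and *KIF9*) and 6 were higher with both (15.1% of all tested genes). Promoter words and the mitotic class go together in this family, so the counts by promoter and by class are not separate evidence.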

How the data were processed

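RNA-seq of 9 VCaP libraries was analysed, 3 each of control, si025 and si033, assigned by sample title. The authors aligned paired-end reads to hg38 with HISAT2 2.1.0 and, per the file headers, counted read pairs over exons of a RefSeq annotation by gene symbol with featureCounts 1.5.2, counting only the strand that a reverse-stranded kit reports. The deposited values are raw counts of read pairs per gene, and reads that map to several places were not counted under that program's defaults. The methods of the study name GENCODE as the annotation, whereas the headers name RefSeq. Coordinates are those of the files.

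Counts were compared between groups with edgeR 4.0.16 under R 4.3.3 (quasi-likelihood test, TMM, default filter on low counts, which kept 12810 of 19918 genes), all 9 libraries in 1 fit of 3 group means without covariates, and Benjamini-Hochberg adjustment covered all genes of the fit. Each standard error (SE) is the log2 fold change divided by the root of its F. CPM were TMM-scaled, and RPKM are CPM per kilobase of exon. Levels are thus relative to the TMM-scaled counts of each library and are not absolute amounts of RNA. Members and lists were chosen with earlier results of these data known. Library values are given for the 5 called members per class with the largest change in any comparison and a mean of at least 1 CPM, plus *KIF11*, *KIF23*, *KIFC1*, *KIF5B* and *KIF3A*. The code was tested on simulated data. Promoters came from RefSeq (GRCh38.p14). The study describes the 3 libraries of a group as biological replicates. The labels do not say whether these were separate cultures, so *p* values measure the spread between these libraries. Replicates differed by more than sampling noise (chi-square per degree of freedom 1.69 to 5.08 over 12829 genes), so none was merged. Libraries with the same replicate number did not deviate together (correlations -0.04 to 0.11), so the numbers were not taken to pair them. Alternatives were other scalings (RLE, upper quartile), offsets for exon length and GC content, no filter, DESeq2 1.42.0, fits of 2 groups only, a replicate block, leaving out each library, and counting *KIF2A* as mitotic. Leaving out *KIF4B* or *KIFC3* was added after seeing the data. The targeted transcript *IGF1R-AS1* and protein sequences were not analysed here, and some of the cell type markers chosen at the start are not reported here.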

Additional observations from a re-analysis of the deposited data

Results flagged for a closer look

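The effects of si025 and si033, each against the same control libraries, differed by the test of the difference itself (edgeR's quasi-likelihood test, adjusted over all genes) in 28 motors, *KIFC3* counted, and in *KIF1BP*, and this is what brought these genes here. The values are the log2 effect of si025 minus that of si033. Among mitotic kinesins the difference was -0.50 for *KIF14*, -0.45 for *KIF2C*, -0.44 for *KIF11*, -0.43 for *KIF15*, -0.31 for *KIF18B*, -0.31 for *KIF20A*, -0.24 for *KIF20B*, -0.23 for *KIF18A*, -0.15 for *KIF4A* and -0.13 for *KIF23*, that is, a larger fall with si025 in 10 of 11. The exception was *KIF22*, at 0.58, whose 3 si033 libraries were the lowest.

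Among transport kinesins the difference was 1.30 for *KIF13B*, 1.0 for *KIF5C*, 0.58 for *KIF1C*, 0.51 for *KIF16B*, 0.46 for *KIFC2*, 0.40 for *KIF13A* and 0.32 for *KIF1A*. It was -0.29 for *KIF3B*, -0.32 for *KIF3A* and -1.33 for *KIFC3*, the last from 3 to 36 counts per library and in a gene that passed the filter on low counts only through its si033 libraries, so that its difference follows from its selection. Among the others it was 0.96 for *KIF26A*, 0.90 for *KIF21B*, 0.73 for *KIF12*, 0.58 for *KIF7*, 0.36 for *KIF27*, 0.13 for *KIF2A* and -0.28 for *KIF24*. For *KIF1BP* it was -0.17. Over all tested genes 60.9% differed by the same test, so a difference between the siRNAs is common in these data.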

How the results depend on the processing

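No count of called kinesins moved by over 1.5 times in any alternative, and no called single result turned its direction. The 12 mitotic calls became 11 to 12 with si025 and 11 to 13 with si033, every one of them lower. The median log2 fold change ranged from -0.81 to -0.72 and from -0.53 to -0.45. Counting *KIF2A* as mitotic adds a gene that was lower with si033 but not called with si025 (-0.09, adjusted *p* = 0.158). In that class not all tested genes were called with si025. Transport calls ranged from 10 to 12 with si025 and 9 to 12 with si033, those of the other kinesins from 6 to 7 and 6 to 10. With the replicate block, although the numbers were not found to pair the libraries, all class counts were those of the fit without it (12 and 12 mitotic, 10 and 11 transport, 7 and 9 other), and over all genes 8000, 7094 and 7843 were called in the 3 comparisons, against 7908, 7015 and 7801. Of 108 results for single kinesins, counting *KIF1BP*, 91 were called, and 86 of the 108 kept direction and side of the threshold in every alternative run, 16 for each result except 15 for *KIFC3* with si025. DESeq2 called 89.

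The results that changed sign were not called. The median of the other kinesins with si025 was -0.091 without the filter on low counts, where all 13 were fitted. *KIF1A* with si033 was -0.066 with offsets for length and GC content and -0.046 to 0.060 with 1 library left out, and the difference between the siRNAs for *KIF3C* was -0.023 with those offsets and -0.042 to 0.096 with 1 library left out. For *KIF5B* that difference was -0.011 to 0.12 and for *KIF21A* -0.026 to 0.091 with 1 library left out. The cause was not tested.

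Further calls not named above changed in some alternatives. *KIF1B* with si033 was lost without si033 replicate 3 (0.15, adjusted *p* = 0.0612). *KIF16B* with si025 was gained without si025 replicate 2 (0.14, adjusted *p* = 0.0151) and with upper quartile scaling (0.13, adjusted *p* = 0.0193). Between the siRNAs, *KIF1B* and *KIF5B* were gained without si025 replicate 2 (0.18 and 0.12), *KIF2A* was lost in 10 alternatives (0.09 to 0.13, adjusted *p* up to 0.215 without si025 replicate 3) and *KIF27* in 5 (0.26, adjusted *p* = 0.128, without si033 replicate 1). *KIF1BP* with si025 was lost in 6 (-0.02, adjusted *p* = 0.746, with offsets for length and GC content). With si033 it was gained with the same offsets (0.097, adjusted *p* = 0.0459). Between the siRNAs, *KIF1A* was 0.19 with those offsets in place of 0.32, and *KIF27* 0.54 without si033 replicate 3 in place of 0.36. *KIF4B* and *KIF26A* held at most 140 counts per library and *KIFC3* at most 36.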
